A study of Mus musculus with 44 samples.

Results

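The late end of a differentiation time course in mouse induced leukocyte stem (iLS) cells was represented by a single library at 120 h and a single library at 168 h. These 2 libraries were taken as 1 late group and compared with the 3 libraries at 0 h, so 5 of the 44 libraries of the series entered the comparison. They were chosen by their time labels. iLS cells are multipotent blood progenitors, here from the fetal liver of C57BL/6J mice, that are kept in culture by a fusion of Id3 to a receptor domain (ERT2) that responds to 4-hydroxytamoxifen (4-OHT). The 0 h libraries come from cells on TSt-4 stromal feeders in medium with 40 nM 4-OHT, 20 ng/mL IL-7, and 10 ng/mL of each of SCF and Flt-3L. The 120 h and 168 h libraries come from cells grown on TSt-4 feeders for the time given, in medium without 4-OHT and with less IL-7, 5 ng/mL. All 5 libraries share the Id3-ERT2 fusion and the feeder line. Poly(A) RNA was sequenced, and the values are FPKM (fragments scaled to transcript length and library size).

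Several features of these libraries bear on every value below. Removal of the feeder line is not mentioned in the labels, nor is it said that the 3 libraries at 0 h are separate cultures, so p-values measure only the spread between libraries. In addition, the 120 h and 168 h libraries carry library codes that run on from those of 96 h replicate 3 and 144 h replicate 3, while the 3 libraries at 0 h lie in other runs of consecutive codes. The 5 libraries listed between 11520 and 12279 genes at 1 FPKM or more. Absolute depth is unknown. Relative to 0 h replicate 1, it was estimated from the smallest values at 0.674 and 1.505 for the other 0 h libraries, 0.570 for 120 h and 0.629 for 168 h. Across genes, the 120 h and 168 h libraries correlated with each other at r = 0.924. Their correlations with the 0 h libraries lay between 0.863 and 0.899, and those among the 0 h libraries between 0.922 and 0.932. Genes are not independent of each other, so these values are descriptions.

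B-cell development from multipotent progenitors runs through a network of transcription factors. E proteins such as the products of Tcf3 bind E-box motifs and are held inactive by Id proteins, and EBF1, FOXO1 and PAX5 act with them to install the B-lineage program. An early product of that program is the pre-B receptor, in which the surrogate light chain (encoded by Igll1 and the Vpreb genes) and the signalling chains Ig-alpha and Ig-beta (Cd79a and Cd79b) pair with the first rearranged heavy chain. Rearrangement itself is started by the RAG1 and RAG2 recombinase. Progenitors lose the receptors of earlier stages, such as FLT3 and CD34, along this path.

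The promoters of 4 genes whose levels stood far above 0 h in both late libraries are shown because E boxes are the motif that the proteins held by Id3 bind. Each run is the 250 bases before the transcription start in RefSeq (GRCm38.p6), 5′ to 3′ on the strand of the gene, with every CAGNTG on either strand in capitals. Igll1 lies on the minus strand at chr16:16863986-16864235, Vpreb1 on the minus strand at chr16:16869256-16869505, Cd79a on the plus strand at chr7:24897247-24897496 and Rag1 on the minus strand at chr2:101649533-101649782.
Igll1: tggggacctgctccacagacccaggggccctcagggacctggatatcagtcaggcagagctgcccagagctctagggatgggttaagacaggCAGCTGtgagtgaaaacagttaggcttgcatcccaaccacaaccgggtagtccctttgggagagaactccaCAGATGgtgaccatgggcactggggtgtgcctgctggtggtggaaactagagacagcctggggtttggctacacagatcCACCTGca
Vpreb1: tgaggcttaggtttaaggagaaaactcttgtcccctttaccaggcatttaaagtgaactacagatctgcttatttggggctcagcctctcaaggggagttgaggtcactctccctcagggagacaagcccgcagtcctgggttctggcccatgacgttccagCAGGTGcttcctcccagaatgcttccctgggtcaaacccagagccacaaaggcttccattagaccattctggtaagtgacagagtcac
Cd79a: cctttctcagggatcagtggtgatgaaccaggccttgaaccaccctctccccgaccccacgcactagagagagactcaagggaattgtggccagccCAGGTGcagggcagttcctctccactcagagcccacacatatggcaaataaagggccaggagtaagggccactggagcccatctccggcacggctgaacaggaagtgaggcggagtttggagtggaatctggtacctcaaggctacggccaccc
Rag1: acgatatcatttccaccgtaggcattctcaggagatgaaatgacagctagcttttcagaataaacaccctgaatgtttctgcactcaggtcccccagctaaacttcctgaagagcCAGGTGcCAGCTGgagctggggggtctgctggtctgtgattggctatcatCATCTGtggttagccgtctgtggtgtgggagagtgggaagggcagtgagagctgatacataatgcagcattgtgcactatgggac
Igll1 and Rag1 have 3 such matches each, and Vpreb1 and Cd79a have 1 each. Of the 12 pre-B receptor and signalling genes with a promoter in the table, 11 (91.7%) held CAGNTG in these 250 bases, against 42.8% of the 9717 tested genes with a promoter. Of 10 V(D)J recombination genes with a promoter, 3 held it. CCCNNGGG, the core of the site of EBF1, was in 2 of the same 12 promoters (16.7%), against 18.3% of tested genes. Pou2af1 and Atp1b1, which also stood far above 0 h in both late libraries, held no CAGNTG in these 250 bases. Syk, Plcg2, Dok3, Pik3ap1 and Bank1, pre-B receptor and signalling genes whose levels did not pass as changed, held it. A match is a description of letters and says nothing of binding.

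In the late libraries, genes of the pre-B receptor, several B-lineage transcription factors, Rag1 and the glycolytic enzymes were higher than at 0 h, and receptors and regulators of progenitors such as Flt3, Cd34 and Cd27 were lower. Of 13962 genes tested with limma, 1549 (11.1%) passed a Benjamini-Hochberg adjusted p of 0.05, 1031 of them higher (7.38% of genes) and 518 lower (3.71%). Thus 66.6% of the calls were higher, and under quantile normalization the split was 866 higher and 695 lower. With scaling to general blood-cell genes it was 594 higher and 76 lower, and the 5 libraries fitted alone gave 135 calls. Both late libraries lay outside the range of the 3 at 0 h for 1478 of the 1549 genes, whereas over all genes 3092 (22.1%) had both late libraries above that range and 2496 (17.9%) had both below. Changes of at least 4-fold were counted for 157 genes that rose and 57 that fell. The late libraries lie in a run of library codes that holds no 0 h library, and a fit with that run as a block gave 1124 genes higher and 353 lower. Of the genes named below, Bcl11a, Cd180, Ciita, Mycn, Il2rg, Klf2, Cited4, Mki67, Lyz1 and Lyz2 lost their calls in it. The count of calls was 578 without the 120 h library, 1078 without the 168 h library and 831 without 0 h replicate 1.

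The largest rises given by the naming rule mixed B-lineage genes with genes of other roles. Vpreb1, Pou2af1, Vpreb3, Vpreb2 and Cd79a are described with their groups below. Atp1b1, which encodes a subunit of the sodium-potassium pump, stood at 2.20, 1.32 and 1.77 FPKM at 0 h, 43.5 at 120 h and 87.0 at 168 h. Pde2a, a phosphodiesterase of cyclic nucleotides, stood at 2.40, 6.20 and 4.51 FPKM at 0 h, 83.2 at 120 h and 144.8 at 168 h. Neither gene had a value at 0 h near those of the late libraries, though the naming rule admits only genes without overlap. Their changes were 4.51 ± 0.32 and 4.43 ± 0.31 (SE) on the log2(FPKM + 1) scale, with a limma adjusted p of 1.4e-11 each. Sema7a (semaphorin 7A), Mt2 (a metallothionein), Pyhin1 (an interferon-inducible gene of the HIN-200 family) and Cplx2 (a complexin of vesicle release) rose by 4.22, 3.94, 3.92 and 3.76 on the same scale.

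**Figure D1:**
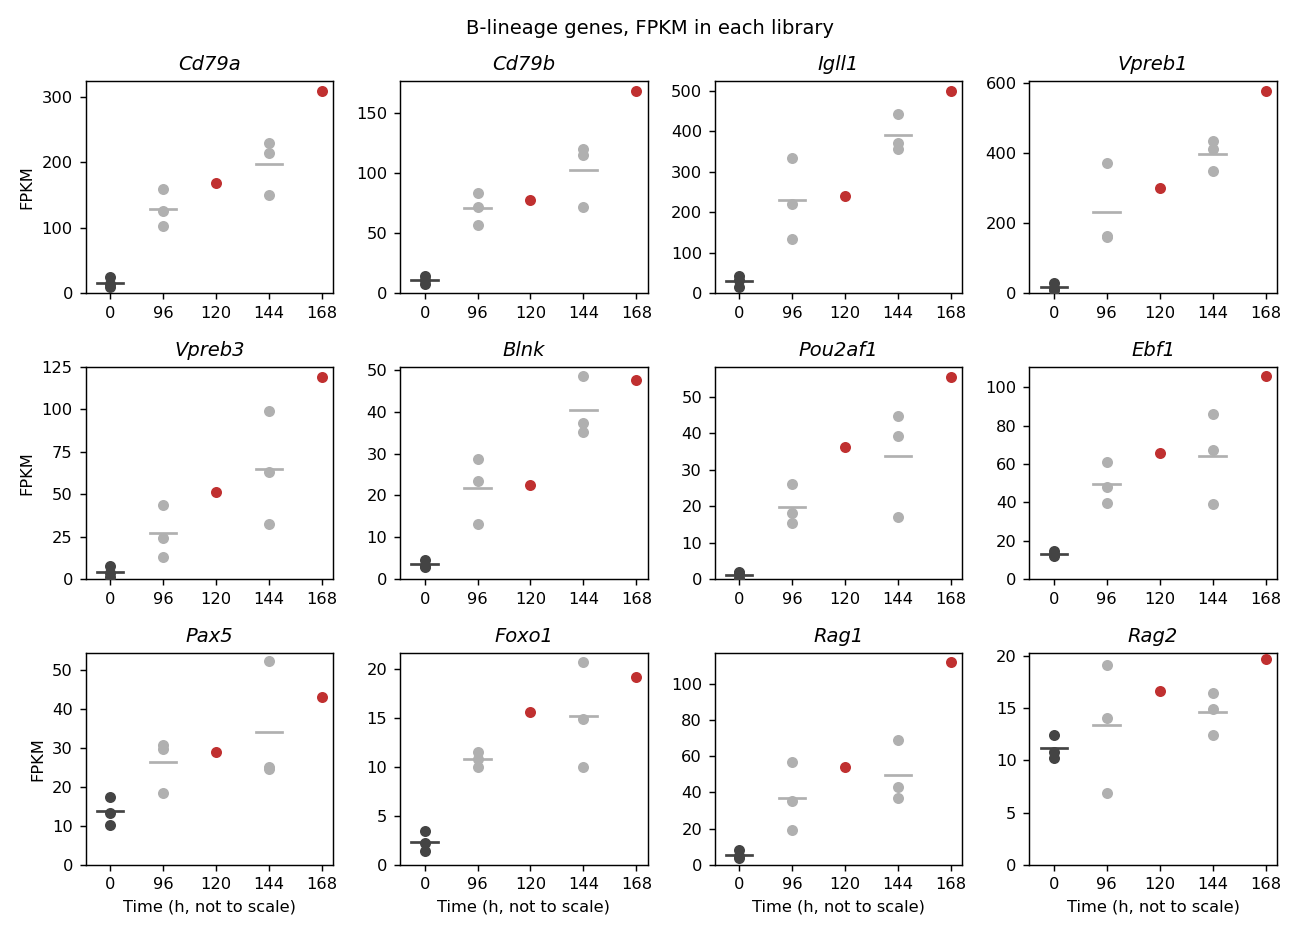
FPKM of 12 B-lineage genes (vertical axes, linear from 0) in each library at 0, 96, 120, 144 and 168 h (horizontal axes, not to scale), with dark grey points for 0 h, light grey for 96 and 144 h, red for the single libraries and bars for means of 3 libraries. For every gene plotted, both red points lie above all 3 points at 0 h, and Pax5 and Rag2 show the smallest separation.

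The genes that encode the pre-B receptor itself rose together in both libraries. Of the 17 tested genes for the pre-B receptor and its signalling, 9 rose, none fell and 8 did not pass the test, with a median change of 2.44 (log2) beside 0.04 for all genes tested. Igll1, one part of the surrogate light chain, stood at 33.6, 15.4 and 41.8 FPKM at 0 h, 240.0 at 120 h and 499.3 at 168 h. Vpreb1, the other part, stood at 14.2, 10.4 and 30.2 FPKM at 0 h, 299.4 at 120 h and 576.4 at 168 h. In both genes the 120 h library already exceeded every 0 h library several times over, and the 168 h library was higher still. Their changes were 3.58 ± 0.66 (SE, limma adjusted p = 0.00038) and 4.57 ± 0.59 (adjusted p = 2.7e-06). Vpreb2, a near copy of Vpreb1 whose reads may be shared with it, rose by 4.04 ± 0.67, and Vpreb3 rose by 4.21 ± 0.65 from 1.22, 7.39 and 3.29 FPKM to 51.5 and 119.2.

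The signalling chains and the adaptor behaved likewise. Cd79a stood at 24.3, 14.4 and 9.91 FPKM at 0 h, 168.2 at 120 h and 309.3 at 168 h, a change of 3.82 ± 0.50 (adjusted p = 3.1e-06). Cd79b stood at 7.35, 14.1 and 10.9 FPKM at 0 h, 77.4 at 120 h and 168.8 at 168 h, a change of 3.34 ± 0.51. Blnk, the adaptor that links the receptor to downstream enzymes, stood at 4.63, 3.11 and 2.77 FPKM at 0 h, with 22.6 at 120 h and 47.6 at 168 h. The groups did not overlap for any of these 3 genes, and the 168 h value was the highest in each. Blk, a B-lineage kinase of the Src family, was listed at 0, 0 and 1.01 FPKM at 0 h and at 3.01 and 10.7 in the late libraries, and its rise of 2.44 ± 0.54 did not pass without the 168 h library.

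The kinases and enzymes that progenitors share with B cells had lower values than at 0 h. Syk, the kinase that docks on the receptor chains, stood at 48.6, 31.4 and 30.7 FPKM at 0 h, 16.1 at 120 h and 21.6 at 168 h. Btk, Lyn, Plcg2, Pik3ap1 and Dok3 also had both late libraries below all 3 at 0 h. None of these 6 genes passed the test, with changes between -1.09 for Dok3 and -0.54 for Btk. Both late libraries also lay below all 3 at 0 h for 17.9% of all genes tested and for 11 of 18 general blood-cell genes. Syk, Lyn, Plcg2 and Dok3 passed as lower when the replicate number of the titles entered the fit as a block. Both late libraries are titled replicate 1 while their codes run on from those of replicate 3, so that block may misplace them, and every call gained with it is uncertain.

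B-lineage transcription factors showed the same direction at smaller sizes. Of 16 tested, 8 rose, none fell and 8 did not pass, with a median of 1.15. Pou2af1, a coactivator of octamer-binding factors, stood at 0.206, 1.87 and 1.52 FPKM at 0 h, 36.2 at 120 h and 55.4 at 168 h, a change of 4.48 ± 0.50 (adjusted p = 1.9e-07). Ebf1, a pioneer factor of the B lineage, stood at 12.9, 14.8 and 12.2 FPKM at 0 h, 65.8 at 120 h and 106.0 at 168 h, a change of 2.57 ± 0.37. Foxo1, which acts on Rag and Il7r, stood at 1.37, 2.20 and 3.43 FPKM at 0 h, 15.7 at 120 h and 19.2 at 168 h, a change of 2.51 ± 0.26. For these 3 genes the late values lay far above a narrow range at 0 h. Lef1, Irf4, Ikzf3, Bach2 and Bcl11a, factors of early B-cell stages, rose by 3.31, 2.03, 1.36, 1.17 and 1.12. Of these, Bach2 did not pass without the 168 h library, and Bcl11a did not without either late library or 0 h replicate 3.

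Pax5, the factor that fixes B-lineage identity, was less separated. It stood at 17.5, 10.3 and 13.4 FPKM at 0 h, 28.9 at 120 h and 43.0 at 168 h, so both late libraries lay above all 3 at 0 h. Its change of 1.33 ± 0.49 did not pass (limma adjusted p = 0.072). It passed with the run of library codes as a block (0.012), with the replicate block (0.041) and with scaling to blood-cell genes (0.035). Ikzf1, the gene of IKAROS, stood at 136.9, 134.5 and 102.6 FPKM at 0 h and at 68.9 and 65.7 in the late libraries, and did not pass (adjusted p = 0.21), except as lower with the replicate block.

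Among the 7 E and Id protein genes tested, Tcf3 rose and the other 6 did not pass, beside 7.38% higher over all genes tested. Tcf3, which encodes the E2A proteins, stood at 55.4, 61.1 and 65.8 FPKM at 0 h, 93.3 at 120 h and 113.6 at 168 h, a change of 0.76 ± 0.14 (adjusted p = 0.00055). Id3 stood at 20.2, 40.2 and 50.3 FPKM at 0 h, 75.3 at 120 h and 53.4 at 168 h. Reads from the gene and from the Id3 fusion cannot be told apart here, so this level is no measure of either. Id3 did not pass (0.86 ± 0.42, adjusted p = 0.20) except with the run of library codes as a block (adjusted p = 0.035). Id1 overlapped between the groups and was lower with the stromal mean as covariate (-1.22, adjusted p = 0.022), and Id2 stood at 18.1 to 20.5 FPKM at 0 h and at 22.4 and 37.4 in the late libraries.

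Of the recombination genes, the pair that acts only in lymphocytes moved unequally. Rag1 stood at 3.84, 5.12 and 7.95 FPKM at 0 h, 53.8 at 120 h and 111.9 at 168 h, a change of 3.61 ± 0.46 (adjusted p = 2.2e-06). Rag2 stood at 10.2, 10.8 and 12.4 FPKM at 0 h, 16.6 at 120 h and 19.7 at 168 h. Its late values lay above the 0 h range, yet the change of 0.65 ± 0.44 did not pass (adjusted p = 0.38). Dntt, the terminal transferase that adds bases at joints, stood at 0.261, 0.394 and 1.05 FPKM at 0 h, with 2.29 at 120 h and 7.98 at 168 h, and rose by 1.83 ± 0.29. The other 8 of 11 tested genes, which encode end-joining and DNA damage proteins, did not pass and lay between -0.18 and 0.90.

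Surface genes of B cells were mixed, with 3 of 18 higher, 1 lower and a median of 0.14. Over all genes tested, 7.38% were higher and 3.71% lower. Bst1, an ectoenzyme of pro-B and stromal cells, stood at 0.914, 2.07 and 1.07 FPKM at 0 h, with 8.02 at 120 h and 44.5 at 168 h, and rose by 3.14 ± 0.48. Cd24a, the heat-stable antigen of early B cells, rose by 1.16 ± 0.22, from 73.7, 87.1 and 135.9 FPKM to 195.1 and 235.4. Cd22, an inhibitory receptor, rose by 2.25 ± 0.54 and did not pass without the 168 h library or 0 h replicate 1. Cd180, a Toll-like receptor homologue, fell from 32.8, 28.7 and 22.7 FPKM to 13.7 and 5.17, and its call was lost without the 168 h library or 0 h replicate 1 or 2.

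Of 9 MHC class II genes tested, 3 rose, none fell and 6 did not pass, and the groups overlapped for 5 of the 9. The shares over all genes tested were 7.38% higher and 3.71% lower, and 40% had both late libraries outside the 0 h range. H2-Eb1 stood at 2.99, 5.52 and 3.80 FPKM at 0 h, 15.8 at 120 h and 33.7 at 168 h. H2-Aa stood at 0.563, 13.6 and 7.95 FPKM at 0 h, 32.6 at 120 h and 51.7 at 168 h. Ciita, the coactivator of these genes, rose by 1.00 ± 0.29 from 0.197, 0.451 and 0.454 FPKM to 0.874 and 2.95. Without the 168 h library none of the 9 genes passed, nor did any with the stromal mean as covariate, and 2 passed without the 120 h library. H2-Aa and Ciita also lost their calls without 0 h replicate 1.

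**Figure D2:**
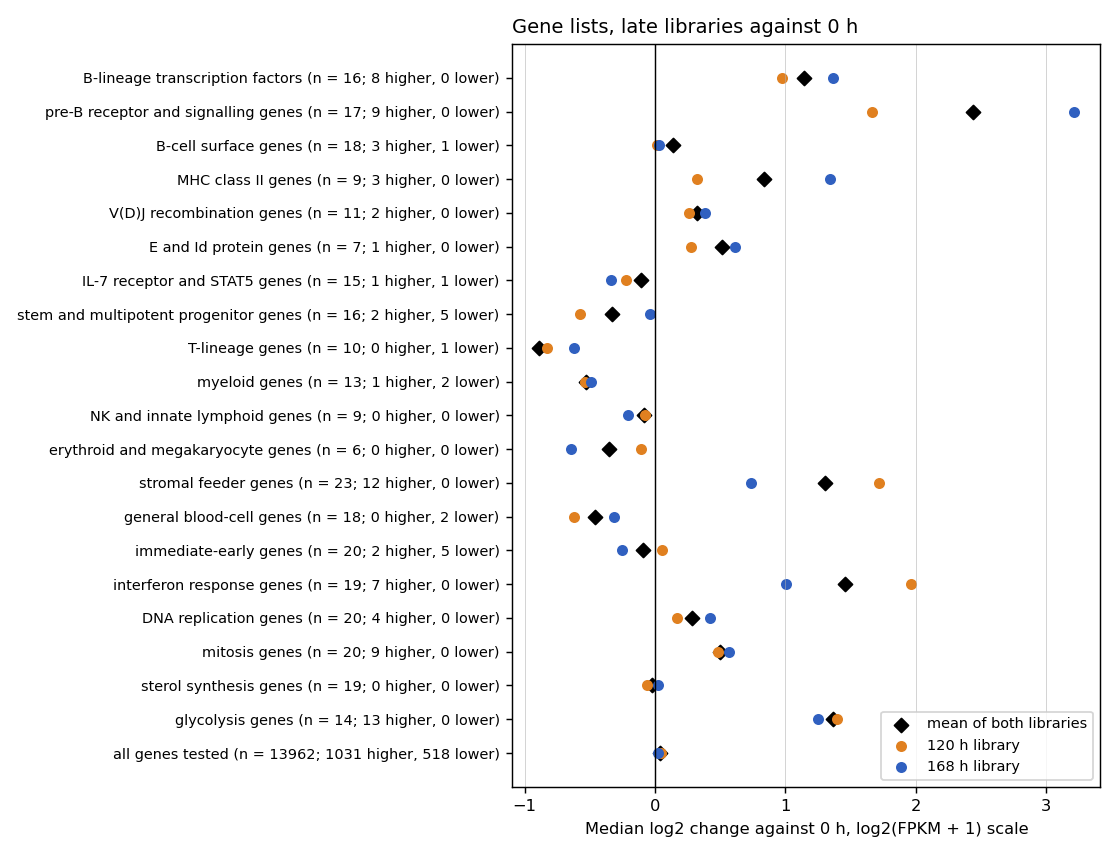
Median log2 change against 0 h (horizontal axis, log2(FPKM + 1) scale) of each gene list, as the mean of both late libraries (black diamonds) and for the 120 h (orange) and 168 h (blue) libraries, with the tested genes and calls of each list beside its name. The pre-B receptor list reaches 1.67 at 120 h and 3.21 at 168 h, whereas the stromal and interferon lists are higher at 120 h than at 168 h.

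Genes of stem cells and multipotent progenitors fell in part. Of 16 tested, 5 fell, 2 rose and 9 did not pass, with a median of -0.33. The shares over all genes tested were 3.71% lower and 7.38% higher. Flt3, the receptor of Flt-3L, stood at 142.2, 151.3 and 140.5 FPKM at 0 h, 33.4 at 120 h and 28.2 at 168 h, a change of -2.20 ± 0.38 (adjusted p = 0.00014). Cd34, a sialomucin of progenitors, stood at 328.4, 225.2 and 203.6 FPKM at 0 h, 57.7 at 120 h and 42.8 at 168 h, a change of -2.29 ± 0.39. Cd27, a receptor of the TNF family, stood at 35.7, 30.5 and 27.7 FPKM at 0 h, 1.87 at 120 h and 5.18 at 168 h, a change of -2.93 ± 0.40. In each of these 3 genes the late libraries were close to each other relative to their distance from 0 h. Flt-3L and SCF are named in the medium at 0 h only.

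The other progenitor genes depended more on single libraries. Hoxa9, a homeobox gene of immature cells, fell by 1.57 ± 0.48 on the log2 scale but did not pass without 0 h replicate 1 or either late library. Mycn, a MYC family gene, fell by 2.07 ± 0.63, and its call was lost in the same cases and without 0 h replicate 2. With the run of library codes as a block Mycn was at -0.89 (adjusted p = 0.16). Kit, the receptor of SCF, stood at 20.5, 29.3 and 18.9 FPKM at 0 h, 12.2 at 120 h and 24.0 at 168 h, so the groups overlapped. Gata2 stayed at or under 0.321 FPKM in all 5 libraries. Ly6a, which encodes Sca-1 and is also an interferon-responsive gene, rose from 79.2, 136.1 and 177.1 FPKM to 1073 and 850.2, a change of 2.93 ± 0.39. Erg, an ETS factor, was listed at 0 in 0 h replicate 1 and rose by 3.20 ± 0.80, but did not pass without 0 h replicate 1 or the 168 h library. Myc rose by 1.09 ± 0.29 and did not pass without either late library or 0 h replicate 1.

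The IL-7 receptor and STAT5 genes showed little change as a list, although IL-7 differed between the groups. Of 15 tested, 1 was higher and 1 lower, with a median of -0.11, beside 7.38% higher and 3.71% lower over all genes tested. Il7r stood at 31.6, 23.7 and 19.2 FPKM at 0 h, 23.9 at 120 h and 44.1 at 168 h. Il2ra, a target of STAT5, stood at 40.0, 43.5 and 30.8 FPKM at 0 h, 36.9 at 120 h and 58.4 at 168 h. Both genes overlapped between the groups. Socs3, a feedback inhibitor of cytokine signals, rose by 2.05 ± 0.36 from 4.45, 6.42 and 8.57 FPKM to 31.5 and 27.1, a call lost with the stromal mean as covariate. Il2rg, the common gamma chain, fell by 1.09 ± 0.35 and lost its call without any 0 h library or without the 120 h library. Pim1, Pim2, Socs2 and Bcl2, also linked to STAT5, had both late libraries below 0 h and passed only with the replicate block.

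Of 20 immediate-early genes tested, 5 fell (25%), 2 rose (10%) and the median was -0.09, beside 3.71% lower and 7.38% higher over all genes tested. Fosb, a subunit of AP-1, stood at 37.8, 18.3 and 46.9 FPKM at 0 h, 0.479 at 120 h and 0.439 at 168 h, a change of -4.50 ± 0.52 (adjusted p = 3.2e-07). Fos, another AP-1 subunit, stood at 44.1, 24.5 and 75.4 FPKM at 0 h, 2.26 at 120 h and 0.830 at 168 h, a change of -4.18 ± 0.75. Zfp36, which destabilizes cytokine mRNAs, stood at 96.4, 87.6 and 82.6 FPKM at 0 h, 22.4 at 120 h and 21.6 at 168 h. Members of the same class did not all do so, since Egr1, Junb and Klf6 overlapped between the groups and Atf3 rose by 1.55 ± 0.45, with its call lost without the 120 h library or 0 h replicate 1 or 2. Klf2 fell by 1.72 ± 0.41 but did not pass without the 120 h library, and with the run of library codes as a block it was at -1.01 and did not pass (adjusted p = 0.13).

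Ccl3, a chemokine of activated blood cells, was the largest fall by the naming rule. It stood at 326.7, 309.8 and 280.5 FPKM at 0 h, 5.83 at 120 h and 14.7 at 168 h, a change of -4.88 ± 0.53 (adjusted p = 1.2e-07). Nrgn (neurogranin), Tnni1 (a troponin subunit) and Gfi1b (a repressor of erythroid and megakaryocyte stages) fell by 3.43, 2.94 and 2.93 on the log2 scale. Their groups did not overlap, which the naming rule requires of every gene it gives as a largest fall. Rgs1, a regulator of G-protein signals, stood at 15.6, 10.4 and 8.14 FPKM at 0 h and was listed at 0 in both late libraries. It was present at neighbouring times, with 3.77, 2.85 and 5.01 FPKM at 96 h and 6.96, 0 and 5.10 at 144 h. Mybpc1 was also listed at 0 in both late libraries. Ccr9, Mybpc1 and Cited4 met the rule but lost their calls without 0 h replicate 1 or either late library, and Cited4 also without 0 h replicate 2.

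**Figure D3:**
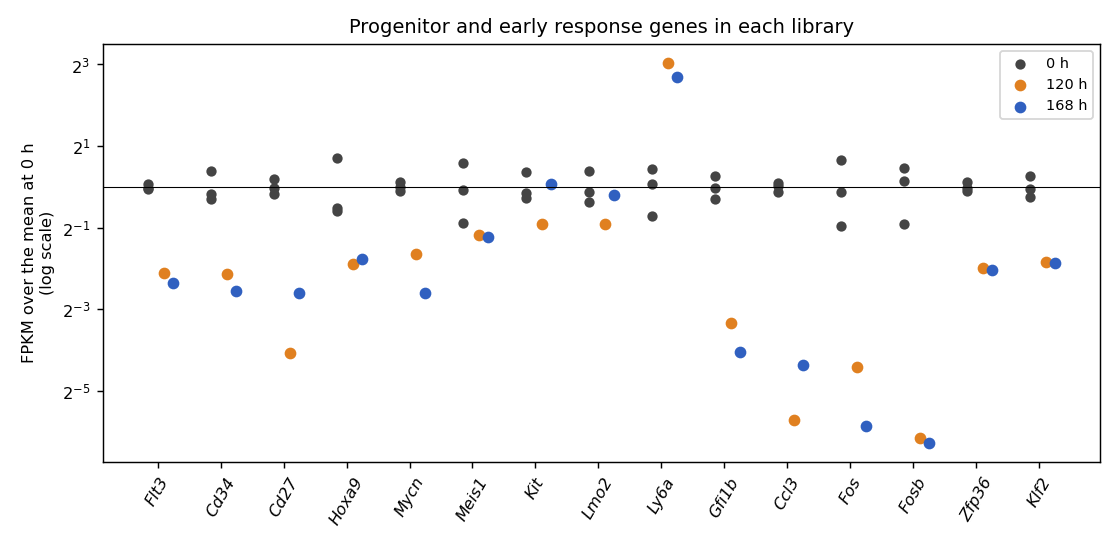
FPKM of 15 progenitor and early response genes in each of the 5 libraries, divided by the mean at 0 h (vertical axis, log scale), with dark grey points for 0 h, orange for 120 h and blue for 168 h. Flt3, Cd34, Cd27, Ccl3, Fos and Fosb lie below 1 in both late libraries, Kit lies on both sides of it and Ly6a lies above it.

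Genes of glycolysis rose almost without exception and by similar amounts. Of 14 tested, 13 rose, none fell, and the median change was 1.37 (1.39 for the 120 h library and 1.25 for the 168 h library). Aldoa, the aldolase gene, stood at 410.4, 524.8 and 291.2 FPKM at 0 h, 1220 at 120 h and 1189 at 168 h, a change of 1.60 ± 0.18 (adjusted p = 1.7e-07). Pgk1, a kinase that makes ATP in the pathway, stood at 299.5, 315.7 and 227.8 FPKM at 0 h, 875.1 at 120 h and 857.8 at 168 h, a change of 1.64 ± 0.21. Ldha, lactate dehydrogenase A, stood at 652.1, 637.3 and 427.7 FPKM at 0 h, 1528 at 120 h and 1457 at 168 h, a change of 1.41 ± 0.21. The late libraries were nearly equal in each of these 3 genes and lay above every 0 h library. Hk1 and Slc2a1, a hexokinase and a glucose transporter, were higher at 120 h (59.3 and 77.6 FPKM) than at 168 h (32.9 and 46.0), a difference that rested on these 2 libraries, and the call of Slc2a1 was lost without that of 120 h. Pdk1, which diverts pyruvate from the mitochondria, rose by 1.64 ± 0.33. Pfkp, an isoform of phosphofructokinase, was the exception, with values that overlapped. The 13 calls were counted again with scaling to blood-cell genes and with the stromal mean as covariate, and 11 and 12 were counted without the 120 h and the 168 h library.

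**Figure D4:**
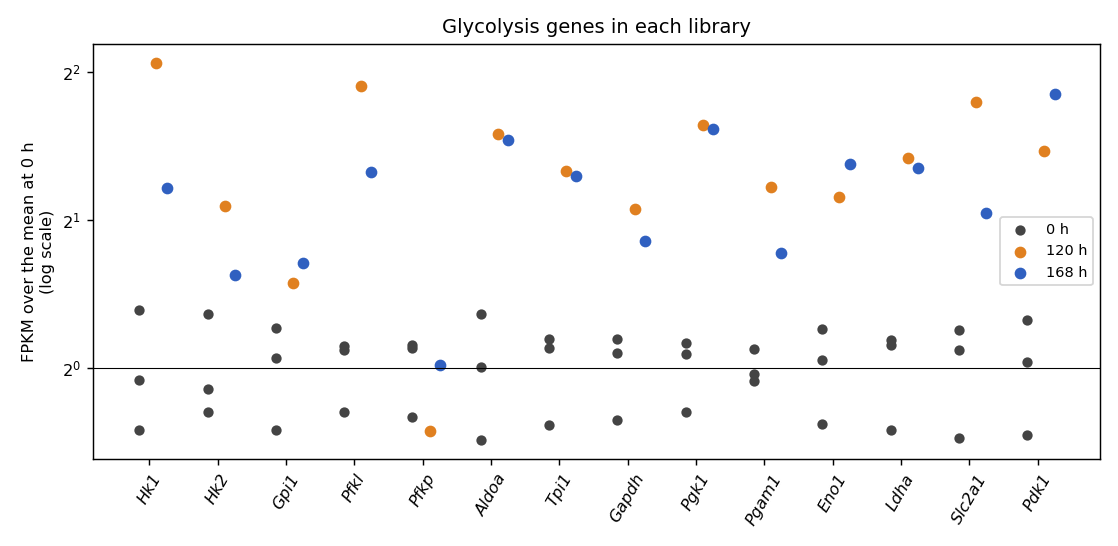
FPKM of the 14 glycolysis genes in each of the 5 libraries, divided by the mean at 0 h (vertical axis, log scale), with dark grey points for 0 h, orange for 120 h and blue for 168 h. Both late libraries lie above all 3 at 0 h for 13 genes, and Pfkp overlaps.

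Of 20 mitosis genes 9 rose, with a median of 0.50, and of 20 DNA replication genes 4 rose, with a median of 0.29. None fell. Over all genes tested, 7.38% rose and 3.71% fell. Birc5, which encodes survivin, stood at 94.5, 76.3 and 65.5 FPKM at 0 h, 158.2 at 120 h and 156.7 at 168 h, a change of 1.01 ± 0.21. Mki67, the proliferation antigen, stood at 55.0, 64.8 and 50.0 FPKM at 0 h, with 82.7 at 120 h and 125.3 at 168 h, and Lig1, the DNA ligase of replication, rose by 0.80 ± 0.17. The calls of Mki67 and Lig1 were lost without the 168 h library. With the run of library codes as a block, Mki67 was at 0.47 and did not pass (adjusted p = 0.15). Without the 168 h library 1 mitosis gene and no replication gene passed, and without the 120 h library 4 and 2 did. No gene of sterol synthesis passed, of 19 tested, with a median of -0.02.

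Feeder-line transcripts were above the 0 h range in the 120 h library by their sum and within it in the 168 h library. The summed FPKM of 25 stromal feeder genes, 2 of which were listed at 0 in all 5 libraries, was 744.6, 1189 and 2522 at 0 h, 4624 at 120 h and 2440.7 at 168 h (exact two-sided permutation p = 0.40, where 3 against 2 libraries cannot go below 0.20). The summed FPKM of 18 general blood-cell genes was 2628, 2944 and 2201 at 0 h, 1597 at 120 h and 2146 at 168 h (exact permutation p = 0.20). Fewer blood cells and less RNA per blood cell cannot be told apart in such libraries. Of 23 stromal genes tested, 12 rose, and 3 did without the 120 h library. Fn1, fibronectin, stood at 42.9, 81.0 and 155.7 FPKM at 0 h, with 644.7 at 120 h and 369.3 at 168 h, and Timp3 and Pdgfra likewise kept their calls without either late library. The pre-B receptor list still had 9 calls with the stromal mean as covariate and 9 with scaling to blood-cell genes, which moved the median of all genes from 0.04 to 0.36. That scaling ended the calls of Cd180, Ciita, Hoxa9, Mycn, Il2rg, Atf3, Klf2, Ccr9, Mybpc1, Cited4, Zap70, Lyz1 and Lyz2. The covariate ended those of the same genes but Lyz1, and of Beta-s, Cd22, H2-Aa, H2-Eb1, Erg, Myc, Ly6c2, Socs3, Ifit3 and Usp18. It also ended those of Timp3 and Pdgfra, which are themselves part of the stromal mean, so that loss is partly built in.

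**Figure D5:**
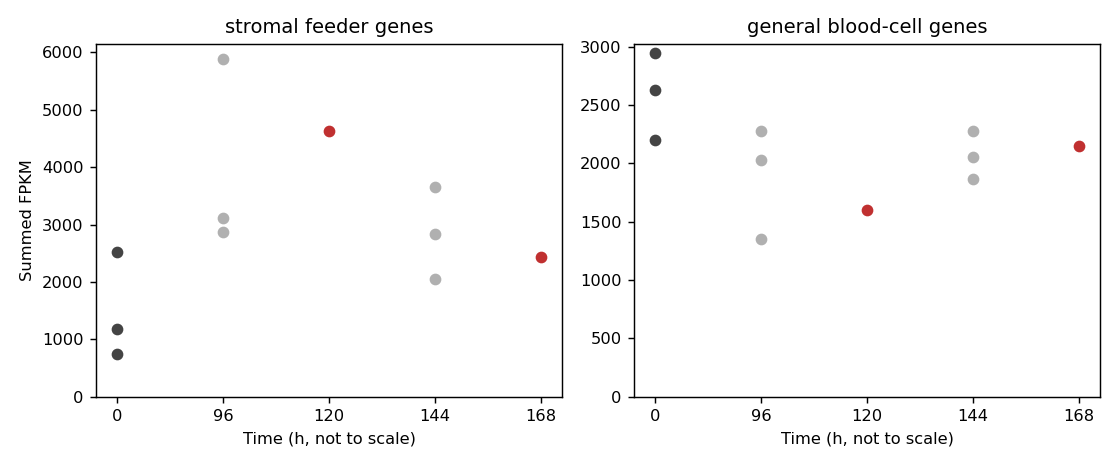
Summed FPKM (vertical axes, linear from 0) of the stromal feeder genes and of the general blood-cell genes in each library at 0, 96, 120, 144 and 168 h (horizontal axes, not to scale), with dark grey points for 0 h, light grey for 96 and 144 h and red for the single libraries. The stromal sum is 4624 at 120 h, above all 3 libraries at 0 h, and 2440.7 at 168 h, within their range.

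Of 19 interferon response genes tested, 7 rose and none fell, beside 7.38% and 3.71% of all genes tested. All 19 had a lower value at 168 h than at 120 h, as did 7236 of the 13962 genes tested, and the median change against 0 h was 1.46 (1.96 at 120 h and 1.00 at 168 h). Ifit3, a member of a family with shared sequence, stood at 9.50, 12.7 and 5.57 FPKM at 0 h, 95.5 at 120 h and 33.7 at 168 h. Usp18, which removes ISG15 from proteins, stood at 10.6, 20.6 and 16.1 FPKM at 0 h, 74.2 at 120 h and 47.5 at 168 h. For 18 of the 19 genes both late libraries lay above all 3 at 0 h, beside 22.1% of all genes tested. Without the 120 h library, or with the stromal mean as covariate, no gene of the list passed. Ifit3 also lost its call without 0 h replicate 1 or 3, and Usp18 without 0 h replicate 1. The part of the feeder cells in these values was not tested further.

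Some markers of other blood lineages passed, beside 11.1% of all genes tested (7.38% higher and 3.71% lower). Of 10 T-lineage genes 1 fell, Zap70, which lost its call without the 120 h library, and Ptcra, the pre-T receptor chain, stood at 1.94 to 3.36 FPKM at 0 h and at 0 and 0.485 in the late libraries. Among 13 myeloid genes 1 rose, Ly6c2, with a change of 1.61 ± 0.54 whose call was lost without 0 h replicate 1 or either late library. The other changes were 2 falls, and those of Lyz1 and Lyz2, which share sequence, lost their calls without the 120 h library, that of Lyz1 also without 168 h and that of Lyz2 also without 0 h replicate 1 or 2. No NK or innate lymphoid gene passed, of 9 tested, and none of 6 erythroid and megakaryocyte genes passed. Summed FPKM of the T-lineage genes was 192.5, 291.1 and 197.4 at 0 h and 100.4 and 105 in the late libraries, and that of the myeloid genes was 356.2, 461.7 and 360.3 at 0 h and 268.6 and 311.7 late. The erythroid and megakaryocyte sum was 142.1, 77.8 and 74.9 at 0 h and 28.2 and 1.71 late. Each of these sums had groups that did not overlap, with the smallest p the design allows (exact permutation p = 0.20). The same held for the general blood-cell sum, whose ratio of late to 0 h was 0.722. The ratio was 0.739 for the myeloid sum, 0.452 for the T-lineage sum and 0.152 for the erythroid and megakaryocyte sum. The NK and innate lymphoid sum overlapped between the groups.

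The 120 h and 168 h libraries were also compared with 0 h one at a time and with each other. In the fit with a mean for each time point, 1078 genes (7.72%) passed at 120 h against 0 h and 579 (4.15%) at 168 h. Of the 1549 genes called for the late group, 887 passed with the 120 h library on its own, 528 with the 168 h library on its own and 346 with each. Between 168 h and 120 h, limma called 0 genes (0%), with 757 at an unadjusted p under 0.05. With a pseudocount of 0.1 there were 13 calls, and 121 without a filter on low values. By value alone, 16 of 17 pre-B receptor and signalling genes were higher at 168 h than at 120 h, beside 6166 of all 13962 genes tested. So were 17 of 18 general blood-cell genes and 14 of 16 B-lineage transcription factors, so this direction was not particular to the receptor genes. For stromal genes 22 of 23 were lower, beside 7236 of all genes.

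The late group was then set beside the replicated time points before and between its libraries. Against 144 h, which lies between the late libraries, limma called 4 genes (0.0286%), with 619 at an unadjusted p under 0.05. Of these, 2310046K01Rik, 1700101E01Rik and Il28ra (a receptor chain for interferon lambda), were higher in the late libraries and C1ql1 was lower. 1700101E01Rik was listed at 0 in every library at 96 and 144 h and at 1.18 and 1.90 FPKM at 120 h and 168 h. Against 96 h, 12 genes passed (0.0859%), with 811 at an unadjusted p under 0.05. Among them Dntt stood at 1.36, 1.03 and 0.864 FPKM at 96 h, below both late values, with a change of 1.39 ± 0.29 (adjusted p = 0.036), and Mfsd10, a transporter of the major facilitator family, stood at 16.2, 14.2 and 15.9 FPKM at 96 h and at 6.85 and 3.38 in the late libraries.

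Within the run of consecutive library codes, 4 libraries cover 96, 120, 144 and 168 h, and receptor genes were higher at each step. Cd79a stood at 102.7 FPKM in 96 h replicate 3, 168.2 at 120 h, 229.5 in 144 h replicate 3 and 309.3 at 168 h. Rag1 stood at 19.0, 53.8, 69.1 and 111.9 FPKM in the same libraries, and Ebf1 at 39.9, 65.8, 86.1 and 106.0. Of the 17 pre-B receptor and signalling genes, 13 were higher at each of the 3 steps and none was lower at each, beside 7.23% and 10.4% of all genes tested. All 19 interferon response genes and 15 of 23 stromal genes were lower at each step. The summed blood-cell genes were 1352, 1597, 1866 and 2146 FPKM over these libraries, with 8 of 18 genes higher at each step, and the summed stromal genes were 5890, 4624, 3654 and 2440.7. The part of this shift in the steps of the receptor genes was not tested. The 120 h and 168 h libraries have no replicate, and the other libraries at 96 h and 144 h lie in other runs of codes. In those, Rag1 stood at 56.9 and 35.2 FPKM at 96 h and at 42.7 and 36.8 at 144 h. For Cd79a, Rag1 and Ebf1, replicate 3 was the lowest of the 3 at 96 h and the highest at 144 h. The sizes of the steps therefore depend on the replicate taken.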

How the data were processed

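The deposited table holds FPKM values made by the authors for 23234 genes in 44 libraries at 16 time points. The name of the table includes the word corrected, without a correction given in the sources used here. Per the submitters' processing notes, TopHat2 2.1.0, Cufflinks 2.1.1 and mm9 were used. Gene symbols are those of the table.

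The analysis used log2(FPKM + 1), unscaled, for the 13962 genes that reached 1 FPKM in 3 or more of the 44 libraries. A linear model with 1 mean per replicated time point and 1 for the late libraries was fitted over all 44 libraries with limma 3.58.1 in R 4.3.3 (eBayes, mean-variance trend, 29 residual degrees of freedom). A second model gave 120 h and 168 h a mean each (28 degrees of freedom), which assumes that a single library varies like the replicated time points. P-values were adjusted by Benjamini-Hochberg over all genes tested, and genes were called under 0.05. Alternatives left out single libraries or changed the pseudocount, filter, scaling, covariate or block, and the closing section gives their effect. Fold changes on this scale understate those of low genes. On simulated data for the late against 0 h comparison (13962 genes), 54 of 100 genes changed 2-fold and 93 of 100 changed 4-fold were called, with 7 false calls.

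The named genes are the 12 largest rises and 12 largest falls among called genes whose late libraries both lie outside the 0 h range, up to 4 called members of each of 20 gene lists, a fixed set of B-lineage and progenitor genes, and the leading genes of the comparisons with 96 h and 144 h. Further list members were named with their values known, and 1 gene that the rule gives is not reported here. The libraries, lists and rule were chosen with earlier results of these data known. Promoters came from RefSeq (GRCm38.p6) by gene symbol.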

Additional observations from a re-analysis of the deposited data

How the results depend on the processing

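Over all 44 libraries, the late against 0 h count of 1549 genes (1031 higher, 518 lower) was 670 (594 and 76) when libraries were scaled to the general blood-cell genes, and 498 (344 and 154) with the stromal mean as a covariate. It was 135 (80 and 55) when the 5 libraries were fitted alone. In that fit 57 of the 103 named genes that were followed lost their calls, more than under any other alternative. A 2-fold minimum left 1055 genes (755 higher and 300 lower). Leaving out single libraries gave 578 to 1687 genes, 385 to 1207 of them higher and 193 to 480 lower, with the lowest counts without the 120 h library. The stromal ratio of late to 0 h was 2.38 and lay between 1.64 and 3.65 without single libraries, and the blood-cell ratio of 0.722 lay between 0.616 and 0.828. Against 144 h there were 4 genes, 9 without a filter and 3 to 11 without single libraries. Against 96 h there were 12, 5 with a pseudocount of 0.1, 27 without a filter and 6 to 21 without single libraries. For 168 h against 120 h, the 0 became 13 with a pseudocount of 0.1 and 121 without a filter. The causes of these differences were not tested, except that fitting fewer libraries leaves fewer degrees of freedom. No paired analysis was possible because 0 h and the late libraries share only the number 1. With the replicate number as a block over all 44 libraries there were 2354 calls (1403 higher and 951 lower), 39 against 144 h and 122 against 96 h, though the titles' number 1 for both late libraries is in doubt, since their codes run on from replicate 3. No named change reversed its direction past the threshold under any alternative run. Depth limits genes near 0, whose fold changes this scale understates.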

Other observations

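Small RNA genes, which poly(A) libraries capture unevenly, were left out of the largest changes, and 4 of 165 tested passed between the late libraries and 0 h. These genes were flagged by annotated class or by name, which also takes in host transcripts such as Mir17hg. Mir2861 was listed at 0 in all libraries at 0, 96 and 144 h and at 1278 FPKM at 120 h and 1172 FPKM at 168 h. Snord45c stood at 7481, 8478 and 6000 FPKM at 0 h and was listed at 0 in both late libraries, in 96 h replicates 1 and 3 and in all 3 libraries at 144 h. Mir17hg, the host transcript of a microRNA cluster, stood at 6.62, 12.1 and 11.8 FPKM at 0 h and at 20.8 and 24.2 in the late libraries.

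The beta globin genes had lower values in both late libraries than at 0 h. Beta-s stood at 77.8, 98.9 and 73.0 FPKM at 0 h, with 13.8 at 120 h and 6.31 at 168 h, and Hbb-b1, which shares sequence with it, stood at 139.1, 66.9 and 71.6 FPKM at 0 h, 22.3 at 120 h and 0.0127 at 168 h. Hbb-b1 did not pass (limma adjusted p = 0.27). Beta-s fell by 3.01 on the log2 scale (limma adjusted p = 0.0012), a call lost with the stromal mean as covariate (adjusted p = 0.059). Gata1, Klf1 and Epor, regulators of red cells, were below the filter.

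Mt1 and Mt2, metallothionein genes with shared sequence, were both higher late. Mt1 stood at 112.4, 39.1 and 64.9 FPKM at 0 h and at 306.1 and 317.9 in the late libraries, a change of 2.23 ± 0.31 (limma adjusted p = 6.4e-06), and Mt2 stood at 11.1, 10.4 and 16.8 FPKM at 0 h and at 196.7 and 216.1.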
